A study of Mus musculus with 6 samples.

Results

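Annexins are cytosolic proteins that bind acidic phospholipids when calcium is present. Each joins a conserved core of helical repeats to an N-terminal head that differs between members and carries the binding sites for partner proteins. They act in vesicle traffic, in the resealing of wounded plasma membrane and in the linkage of membranes to actin, and several of them are abundant in ductal and other epithelial cells.

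Of the 10 annexin genes named for this comparison (Anxa1, Anxa2, Anxa3, Anxa4, Anxa5, Anxa6, Anxa7, Anxa9, Anxa11 and Anxa13), 9 were among the 10616 genes listed, and Anxa11 was not analysed here. Members were taken by gene symbol. The family was selected on the normalized counts of Anxa13, which rose in these same libraries, so every difference between groups given for an annexin is a description, and no p-value is printed for one. A further pair, Anxa8 and Anxa10, is listed but was not among the 10 names, and its values are shown beside the members.

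The libraries came from KPC cells, a line of pancreatic ductal adenocarcinoma from the mouse. In shBrca2 (3 libraries) a lentiviral hairpin against Brca2 was introduced, and in shControl (3 libraries) a non-targeting hairpin in the same vector backbone, both followed by puromycin selection. Live cells were sorted after culture in growth medium, and 3′ end RNA libraries were made by a MARS-seq protocol. The labels do not say whether the 3 libraries of a group were separate cultures, so the spread between them may be technical. The number of hairpin sequences or clones behind shBrca2 was not given in the sources used here.

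Totals ran from 1519340 to 2452467 counts per library, and from 10532 to 10593 genes were detected. Brca2 had 10, 11 and 14 raw counts in shBrca2 and 33, 52 and 33 in shControl, a difference of -1.61 ± 0.44 (SE) on the log2 scale (DESeq2 likelihood ratio test, adjusted p = 0.0290), so the libraries followed their labels. The call of Brca2 rests on few counts and was lost without shControl replicate 2 (adjusted p = 0.371), without shBrca2 replicate 3 (0.233) and without shBrca2 replicate 2 (0.152), while with TMM factors or a low-count filter DESeq2 gave no adjusted p. The leading principal component, with 41.1% of the variance, did not separate the groups: shBrca2 replicates 1 and 3 and shControl replicate 1 lay on one side and shControl replicate 3 lay far out on the other. All 8 duct epithelium markers were listed, with summed normalized counts from 16783 to 17612 in shBrca2 and from 17674 to 18845 in shControl, although Epcam alone was at 3.78 to 9.09 normalized counts. Of these 8 markers, 2 were called higher in shBrca2 by DESeq2, namely Krt7 (338 ± 51.5 against 146 ± 21.7 normalized counts, SD, n = 3, adjusted p = 2.07e-06) and Sox9 (71.9 ± 19.0 against 31.5 ± 9.54, adjusted p = 0.0391), and their part in the annexin values was not tested. Of markers of other cells, 1 of 9 for fibroblasts (Col1a2), 1 of 6 for leukocytes (Cd68), 2 of 6 for acinar cells (Prss2 and Cela1) and 0 of 4 for endothelium were analysed here. The fibroblast sum was 10.9 to 17.0 normalized counts in shBrca2 and 7.91 to 22.2 in shControl, and the leukocyte sum 12.2 to 20.4 and 11.1 to 16.8. The acinar sum was 34.1 to 64.4 in shBrca2 and 38.4 to 52.0 in shControl.

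Anxa2 was the most abundant annexin, at 4570 ± 617 CPM (SD over all 6 libraries). CPM values are raw counts as a share of the library total, scaled to a fixed sum, and because each transcript is counted at its 3′ end they were not divided by gene length. Anxa5 followed at 1539 ± 140, then Anxa3 at 1176 ± 193, Anxa4 at 841 ± 310 and Anxa1 at 786 ± 121 CPM. Anxa8 was at 581 ± 53.4, Anxa7 at 206 ± 20.04, Anxa13 at 141 ± 70.0, Anxa10 at 141 ± 17.5, Anxa9 at 19.5 ± 2.68 and Anxa6 at 9.04 ± 2.34. Anxa2 lay above Anxa5 in all 6 libraries with no overlap of their ranges. The same held for Anxa1 above Anxa8, Anxa8 above Anxa7, Anxa10 above Anxa9, and Anxa9 above Anxa6. Anxa5 exceeded Anxa3 within each of the 6 libraries, but their ranges overlapped. The order of Anxa3, Anxa4 and Anxa1 was less settled, since Anxa3 exceeded Anxa4 in 5 of 6 libraries and Anxa4 exceeded Anxa1 in 4 of 6.

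The place of Anxa13 in this order changed with the group. Anxa13 was above Anxa10 in the 3 shBrca2 libraries, at 174, 191 and 240.0 against 139, 155 and 164 CPM. In the 3 shControl libraries it was below, at 71.0, 86.0 and 84.7 against 143, 117 and 125. Anxa7 exceeded Anxa13 in 5 of the 6 libraries, and the exception was shBrca2 replicate 3, with 214 CPM for Anxa7.

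The difference between groups was then described on normalized counts, which are raw counts divided by a library size factor. Of the 9 members, Anxa13 alone met the calling rule used for KPC cells (adjusted p under 0.1, absolute log2 fold change over 0.5 and base mean, the mean normalized count, over 5), and 0 members met it in the lower direction. Over all 9997 genes with an adjusted p, 0.77% were called higher and 0.5% lower by DESeq2. Since the family was picked for Anxa13, nothing is read from that count. The log2 fold change was above 0 for 7 of 9 members, against 49.8% of all genes tested. Its median was 0.22 over the 9 members and 0.20 without Anxa13, against -0.00094 over all genes tested. The median absolute log2 fold change was 0.261 for the members and 0.227 for all genes tested. The value for the members includes Anxa13, and the genes were not matched by base mean.

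**Figure D1:**
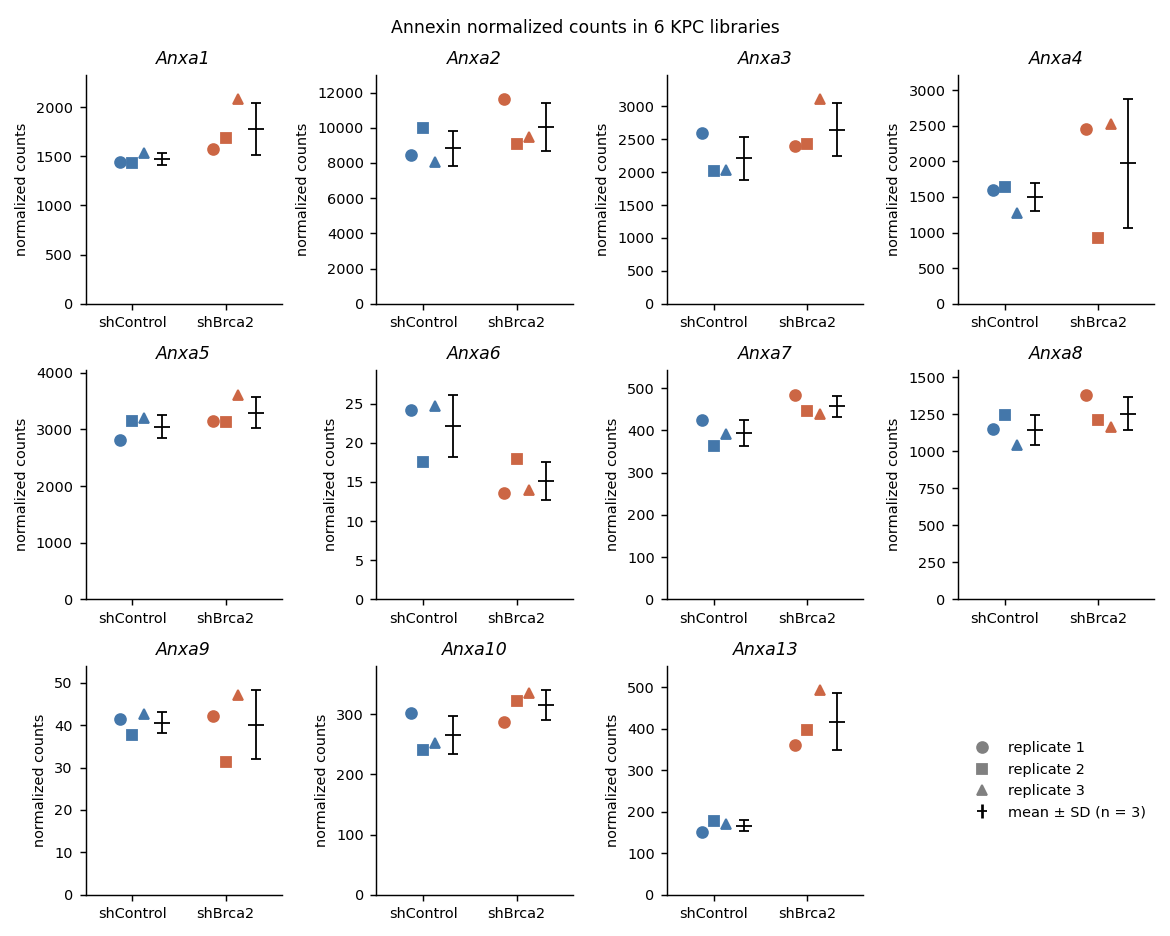
Normalized counts (vertical axes, each starting at 0) of the 11 listed annexins in the 6 KPC libraries, with shControl in blue, shBrca2 in orange, a marker shape for each replicate number, and black bars for the mean ± SD (n = 3). Replicate numbers follow sample order and pair no libraries across groups. The groups stand far apart for Anxa13, and Anxa4 is low in shBrca2 replicate 2, at 928.

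Anxa13 is known as an annexin of intestinal and other polarized epithelia. It is myristoylated at its N-terminus and has been placed in vesicle transport to the apical surface. The gene lies on chromosome 15 (58341464 to 58389274, GRCm38.p6, RefSeq) and overlapped no other gene in GENCODE vM39. It had 265, 419 and 566 raw counts in shBrca2 and 149, 211 and 173 in shControl. Normalized counts were 361, 396 and 493 in shBrca2 and 151, 177 and 171 in shControl. All shBrca2 libraries lay above all shControl libraries, and the lowest of the former was 2.04-fold above the highest of the latter. The means were 417 ± 68.1 and 166 ± 13.9 (SD, n = 3). This is a difference of 1.33 ± 0.19 (SE) on the log2 scale, or 2.51-fold. When each library was left out in turn the log2 fold change ran from 1.19 to 1.42. The spread within shBrca2, a coefficient of variation of 16.4%, was above the 4.90% that counting alone gives at this depth, whereas within shControl it was 8.34% against 7.50%.

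Anxa2 forms a heterotetramer with S100a10 at the plasma membrane and takes part in plasminogen activation at the cell surface. Its gene is on chromosome 9 (69453683 to 69491792, GRCm38.p6). Normalized counts were 11630, 9058 and 9458 in shBrca2 and 8479, 9970 and 8027 in shControl. The groups overlapped, because shControl replicate 2 exceeded 2 of the 3 shBrca2 libraries. The log2 fold change was 0.19 ± 0.15 (SE), with a 95% interval from -0.11 to 0.48.

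Anxa1, a glucocorticoid-regulated protein that signals through formyl peptide receptors, had 1572, 1682 and 2081 normalized counts in shBrca2 and 1436, 1431 and 1537 in shControl. The groups did not overlap, but the nearest libraries, shBrca2 replicate 1 and shControl replicate 3, were close and changed order when counts were scaled by library totals. The log2 fold change of 0.28 ± 0.15 (SE) had a 95% interval from -0.014 to 0.57, and it was 0.15 without shBrca2 replicate 3. Anxa7, which promotes fusion of secretory granules, also had groups that did not overlap. Its normalized counts were 485, 447 and 439 in shBrca2 and 424, 363 and 392 in shControl, a log2 fold change of 0.22 ± 0.16 (SE). With Anxa13 this made 3 of 9 members with shBrca2 wholly above shControl, where 10.2% of all genes tested had that pattern, and 0 of 9 with shBrca2 wholly below, where the share was 10.4%. One of these 3 is the gene for which the family was picked.

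Anxa3 and Anxa5 had overlapping groups. Anxa3 had 2400.05, 2434 and 3112 normalized counts in shBrca2 and 2591, 2017 and 2026 in shControl, a log2 fold change of 0.26 ± 0.16 (SE). Anxa5, the phosphatidylserine-binding protein used to stain apoptotic cells, had 3152, 3127 and 3616 in shBrca2 and 2811, 3146 and 3198 in shControl. Its log2 fold change was 0.11 ± 0.13 (SE), with a 95% interval from -0.15 to 0.38. The highest library of both genes was shBrca2 replicate 3, as it was for Anxa1, Anxa4, Anxa9, Anxa10 and Anxa13.

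Anxa4, which is typical of secretory and ductal epithelia, varied most. It had 2460, 928 and 2524 normalized counts in shBrca2 and 1590, 1640 and 1276 in shControl. Thus 2 shBrca2 libraries lay above every shControl library and shBrca2 replicate 2 lay below all of them. The coefficient of variation was 45.8% within shBrca2 and 13.2% within shControl, where counting alone would give 2.30% and 2.495%. The fitted dispersion, the squared coefficient of variation beyond counting error, was 0.145 for Anxa4. Its median was 0.0155 over the 225 genes tested with a base mean of 1000 to 3000. Of those 225 genes, 3, with Anxa4 among them, had a dispersion that high. The log2 fold change of 0.39 ± 0.45 (SE) therefore had a wide interval, from -0.49 to 1.27. It was 0.73 without shBrca2 replicate 2, where Anxa4 met the calling rule, and 0.17 without shBrca2 replicate 3. Anxa4 (chromosome 6, 86736840 to 86793634, GRCm38.p6) overlaps the noncoding gene Gm44036 on the opposite strand in GENCODE vM39. The use of strand in counting was not given in the sources used here, so this count is uncertain. The part of that overlap in the spread was not tested.

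The members at low level gave little precision. Anxa6, which carries a duplicated annexin core, had 10, 19 and 16 raw counts in shBrca2 and 24, 21 and 25 in shControl, or 13.6, 18.0 and 13.9 against 24.2, 17.6 and 24.7 normalized counts. Its groups overlapped by a single pair of libraries, and the log2 fold change was -0.54 ± 0.47 (SE), with a 95% interval from -1.46 to 0.39. Counting alone gives a coefficient of variation of 25.8% in shBrca2 at this depth. Anxa9, whose core has lost its calcium-binding sites, had 42.2, 31.2 and 47.0 normalized counts in shBrca2 and 41.4, 37.7 and 42.5 in shControl. The log2 fold change was -0.014 ± 0.34 (SE), and the 95% interval from -0.67 to 0.64 leaves room for changes in either direction. Reads of Anxa9 may be mixed with those of Mindy1 on the opposite strand and of 6330562C20Rik, a noncoding gene that shares its strand, and its count is therefore uncertain. Anxa1, Anxa2, Anxa3, Anxa5 and Anxa6 also overlap at least 1 gene on the opposite strand. On their own strand Anxa3 overlaps Gm42603, Anxa2 overlaps Mir3109 and Anxa5 overlaps Mir7009. These are overlaps of whole gene spans, introns included, and whether any reads are shared was not tested.

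The 2 listed annexins outside the named members had small differences. Anxa8 had 1383, 1213 and 1167 normalized counts in shBrca2 and 1150, 1245 and 1039 in shControl, a log2 fold change of 0.13 ± 0.14 (SE). Anxa10, an annexin of gastric epithelium, had 287, 322 and 336 in shBrca2 and 302, 242 and 253 in shControl, a log2 fold change of 0.25 ± 0.18 (SE). Both had groups that overlapped. Anxa8 also overlaps the protein-coding gene A630023A22Rik on the opposite strand in GENCODE vM39. That gene had a base mean of 3.85, against 1199 for Anxa8, and mixing of their reads was not tested.

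**Figure D2:**
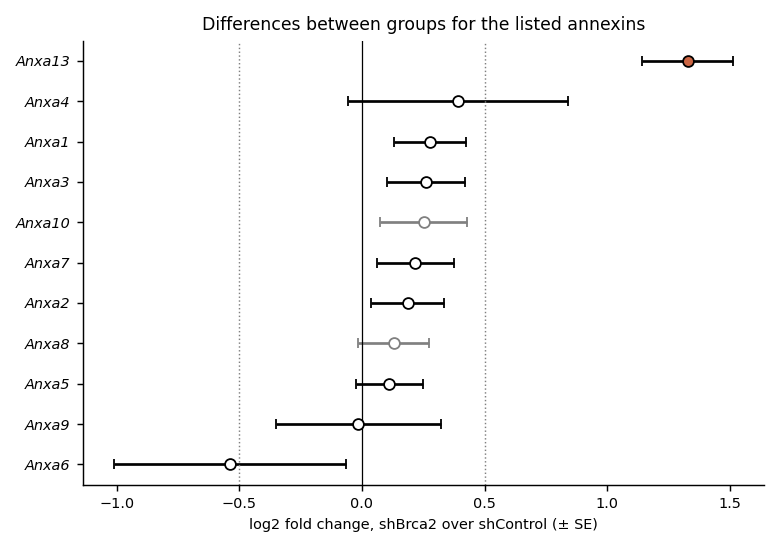
Log2 fold change (horizontal axis, shBrca2 over shControl, with bars for ± SE) of the 11 listed annexins, with members in black, Anxa8 and Anxa10 in grey and dotted lines at the fold change limit of 0.5. Anxa13, filled orange because it met the calling rule, lies at 1.33, and the next is Anxa4 at 0.39 with a wide error bar.

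Annexin transcripts as a whole took 1.15, 0.948 and 1.13% of all counts in shBrca2 and 0.897, 0.986 and 0.890% in shControl. Summed normalized counts over the 11 genes were 23785, 19656 and 23287 in shBrca2 and 19000, 20287 and 17984 in shControl. Here shBrca2 replicate 2 fell below shControl replicate 2, so the groups overlapped. The log2 ratio of the means was 0.22, and 0.17 to 0.30 when each library was left out in turn. Of the difference of 3152 normalized counts between the means, Anxa2 made up 38.8%, Anxa4 14.9%, Anxa3 13.9%, Anxa1 9.84%, Anxa13 7.94% and Anxa5 7.83%. The groups of Anxa2, Anxa3, Anxa4 and Anxa5 overlapped, so these percentages describe the means only.

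Within this pool the shares of the most abundant annexins overlapped between the groups and those of Anxa13 did not. Anxa2 took a share of 45.2 ± 4.21% in shBrca2 against 46.1 ± 2.61% in shControl (SD, n = 3). Anxa5 took 14.9 ± 1.44% and 16.0 ± 1.56%, and Anxa3 took 11.9 ± 1.68% and 11.6 ± 1.87%. Anxa13 took 1.52, 2.02 and 2.12% in shBrca2 and 0.792, 0.872 and 0.951% in shControl. Its mean share was 1.88 ± 0.320% against 0.872 ± 0.0794% (SD), a restatement of the counts for which the family was picked. Anxa4 ranged from 4.72 to 10.8% within shBrca2 alone.

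**Figure D3:**
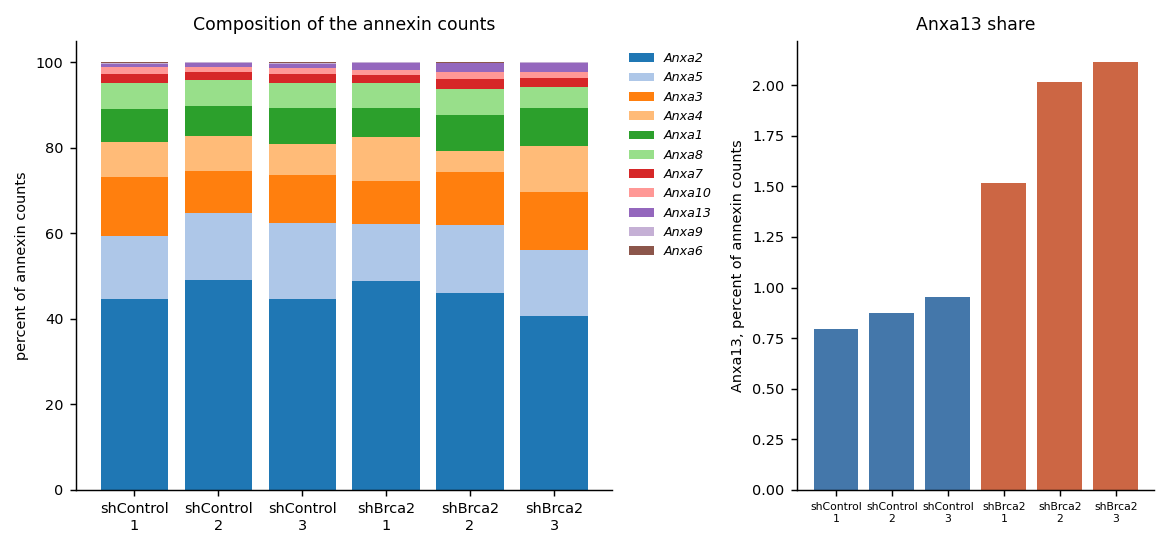
Left, share of each of the 11 listed annexins in the annexin counts of a library (vertical axis in percent, stacked bars, 1 bar per library); right, the share of Anxa13 alone on an axis from 0, with shControl in blue and shBrca2 in orange. Anxa2 fills 40.6 to 49.1% of every bar, and Anxa13 is 0.792 to 0.951% in shControl and 1.52 to 2.12% in shBrca2.

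To place Anxa13 among other genes, the root mean square distance between centred log2(normalized count + 1) profiles over the 6 libraries was computed for 5680 genes with a base mean of at least 50. The median distance was 0.712. The nearest genes were Aqp5 (0.106), a water channel of secretory epithelia, Ddc (0.117), the aromatic amino acid decarboxylase, and Sptssb (0.126), a small subunit of serine palmitoyltransferase. Serpinb1a (0.145), an inhibitor of neutrophil elastase, and Tm4sf4 (0.159), a membrane protein that spans the bilayer repeatedly, came next. Aqp5 had 183, 197 and 209 normalized counts in shBrca2 and 63.7, 83.9 and 85.0 in shControl. Ddc had 136, 125 and 155 in shBrca2 and 52.5, 52.0 and 58.3 in shControl. All 5 therefore shared with Anxa13 a separation of the groups, and their log2 fold changes lay between 1.34 and 1.45. The nearest other annexin was Anxa1, at rank 449. These genes were found by their likeness to Anxa13 in the libraries that chose it, so the likeness is a description only.

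Genes that work with annexins were examined next. Of 11 binding partners 9 were analysed here, and 0 were called by DESeq2, where 1.27% of all genes tested were called in either direction. For a list this short, 0 is near that share. Of the 9 partners 0 were at an unadjusted p under 0.05, where 8.66% of all genes tested fell under it, and 0 were called by edgeR. Their median log2 fold change was 0.19, with 5 of 9 above 0. S100a10, the partner of Anxa2, had 3693, 3932 and 3127 normalized counts in shBrca2 and 3029, 2968 and 3218 in shControl, so the groups overlapped, and its log2 fold change was 0.22 ± 0.14 (SE). S100a6, which binds several annexins, had the highest base mean of the list, at 41881. Its shBrca2 libraries lay wholly above shControl, as did those of 10.2% of all genes tested. The log2 fold change of S100a6 was 0.19 ± 0.12 (SE, adjusted p = 0.73 by DESeq2). Nedd4, a ubiquitin ligase that binds Anxa13, stood at 0.21 ± 0.15 on the same scale (SE, adjusted p = 0.791 by DESeq2).

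Of 19 plasma membrane repair genes 17 were analysed here. DESeq2 called 0 of them, against 1.27% of all genes tested, and edgeR called 0. At an unadjusted p under 0.05 there was 1 (Cav1, named after its value was seen, log2 fold change -0.615), against 8.66% of all genes tested. The median log2 fold change was -0.077. The most abundant were Myof, a ferlin that mends membranes (0.27 ± 0.16, SE), Cavin1, which coats caveolae (-0.25 ± 0.13), and Capns1, the small calpain subunit (-0.32 ± 0.20), where DESeq2 gave adjusted p-values of 0.696, 0.594 and 0.727. Of 19 other proteins that bind membranes through C2 domains, 13 were analysed here. DESeq2 called 0 of them, against the same 1.27%, and edgeR called 0. Of the 13, 3 (Esyt1, Syt7 and Sytl2, named after their values were seen) were at an unadjusted p under 0.05, against the same 8.66%. The median log2 fold change of the 13 was 0.23. The 3 with the highest base mean were Prkca (-0.17 ± 0.21, SE), Esyt1 (-0.52 ± 0.22) and Cpne2 (0.38 ± 0.22).

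Among 13 proteins that link membranes to the actin cortex, 1 was called by DESeq2, in the lower direction, where 0.5% of genes tested were called lower, and the same 1 had an unadjusted p under 0.05. This was Myo1c, a class I myosin that tethers membranes to actin, with 1058, 944 and 875 normalized counts in shBrca2 and 1274, 1488 and 1325 in shControl. The groups did not overlap, and the difference was -0.51 ± 0.14 (SE) on the log2 scale (DESeq2, adjusted p = 0.0502). The call was at the fold change limit. The adjusted p was 0.122 by edgeR, and the call was lost in 4 of the 6 fits without a library, with adjusted p-values of 0.456 without shControl replicate 2, 0.283 without shBrca2 replicate 3, 0.151 without shBrca2 replicate 2 and 0.131 without shControl replicate 3. The median of the list was -0.095.

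Since Anxa13 is known from the gut, genes of intestinal epithelium and the apical membrane were examined as well. Of 19 listed, 11 were analysed here and 10 had an adjusted p, of which 2 were called higher by DESeq2 and 0 lower, where 0.77% of genes tested were called higher. An unadjusted p under 0.05 was found for 5 of the 10, in both directions, against 8.66% of all genes tested. The list was drawn up with earlier results of these libraries known, Fabp1 included. Vil1, the actin-bundling protein of microvilli, had 271, 245 and 201 normalized counts in shBrca2 and 148, 135 and 104 in shControl, and no libraries overlapped. It rose by 0.89 ± 0.21 (SE) on the log2 scale, and the adjusted p was 0.00693 in DESeq2 and 0.0529 in edgeR. The call of Vil1 was lost without shBrca2 replicate 1 (0.126) and without shControl replicate 3 (0.103). Fabp1, the fatty acid binding protein of enterocytes and hepatocytes, had 21.8, 12.3 and 20.9 normalized counts in shBrca2 and 5.05, 1.68 and 0.989 in shControl, and rose by 2.85 ± 0.77 (SE) on the log2 scale (DESeq2, adjusted p = 0.0193). Its counts are low, and of the 6 fits without a library it was called in 1, that without shControl replicate 1; in 3 the adjusted p was 0.142 to 0.313, and DESeq2 gave none in the other two. The remaining genes did not pass, and all of them are given here. Cdh17, an intestinal cadherin, had a log2 fold change of 0.60 ± 0.19 (SE), Myo1a one of 0.73 ± 0.69, Hnf4a one of 0.33 ± 0.14, Cdx2 one of 0.25 ± 0.22 and Tff3 one of 0.059 ± 0.19. Values below 0 were found for Krt20 (-0.053 ± 0.16), Epcam (-0.55 ± 0.78) and Plec (-0.43 ± 0.16), which links intermediate filaments to membranes and whose shBrca2 libraries lay wholly below shControl. Fabp2, at a base mean of 3.82, had no adjusted p. The median of the 10 genes was 0.29, with 7 above 0.

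**Figure D4:**
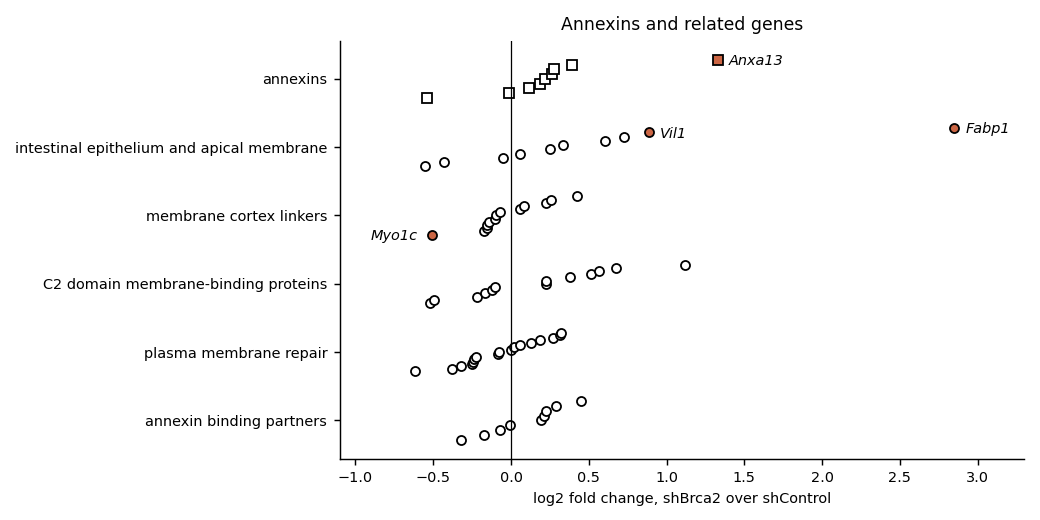
Log2 fold change (horizontal axis, shBrca2 over shControl) of the 9 annexin members (squares) and of 5 lists of related genes (circles), 1 symbol per gene with an adjusted p, filled orange and named where the calling rule was met. Anxa13, Vil1 and Fabp1 lie to the right of 0 and Myo1c to the left at -0.51. The other lists hold no filled symbol, where 1.27% of all genes tested were called.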

How the data were processed

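The authors deposited a table of raw counts with a row for each gene symbol and a column for each library, neither normalized nor pooled. The submitters' processing notes name bcl2fastq, cutadapt, STAR 2.4.2a, HTSeq, DESeq2 and the mm10 build. The annotation, strand setting and use of molecular identifiers are not given in the sources used here, so counting errors cover counting only. Each listed gene reaches at least 6 counts in some library. Columns were matched by title and groups taken from the source name; the labels give no batch.

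DESeq2 1.42.0 in R 4.3.3 was run on all genes (likelihood ratio test, median-of-ratios factors, Benjamini-Hochberg adjustment), with the thresholds of the study's methods. The pipeline was tested on simulated counts. Alternatives were edgeR 4.0.16 (quasi-likelihood, TMM), the Wald test, TMM or total-count scaling, at least 10 counts in at least 3 libraries, no independent filtering, and each library left out. Intervals are 1.96 SE.

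Members and lists were chosen with earlier results of these data known. Named genes were all members, Brca2, called genes of each list (otherwise the 3 most abundant) and the 5 genes nearest Anxa13; other genes of the lists were named after their values were seen. Positions are RefSeq GRCm38.p6. Overlaps were looked up between whole gene spans, introns included, in GENCODE vM39 (GRCm39), not the build of the counts.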

Additional observations from a re-analysis of the deposited data

How the results depend on the processing

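The log2 fold changes of the 11 listed annexins each moved by less than 1 SD between replicates in all 132 comparisons with an alternative. That limit shows little, because leaving out 1 of 3 libraries can hardly move a group mean that far. The Wald test and the fit without independent filtering repeat the main estimates. Across the fits with a library left out, Anxa4 ran from 0.17 to 0.73 and Anxa9 from -0.15 to 0.14. Anxa13 met the calling rule under every alternative. These are refits of the counts for which the family was picked, so nothing is read from the calls of Anxa13. The number of members called was 1 under every alternative with 6 libraries and 1 to 2 when libraries were left out singly, the second being Anxa4 without shBrca2 replicate 2. Both other scalings gave a log2 ratio of total annexin level of 0.22, as in the main analysis. Members with shBrca2 wholly above shControl numbered 3 under TMM factors and 2 under total counts, where the groups of Anxa1 overlapped, a comparison chosen after seeing the data. Over all genes, 127 were called, and 47 to 140 in those leave-one-out fits: 81 without shBrca2 replicate 1, 47 without shBrca2 replicate 3 and 55 without shControl replicate 2. Brca2, called with all libraries otherwise, was given no adjusted p by DESeq2 under TMM factors and the low-count filter. Membrane cortex linkers had 0 called by edgeR and 0 to 1 across those fits. The intestinal and apical list had 0 to 3, with Cdh17 in place of Fabp1 under TMM factors, total counts and the low-count filter, where DESeq2 gave Fabp1 no adjusted p. The C2 domain list had 0 to 1, the 1 being Cpne1 without shControl replicate 1. The binding partners and repair genes had 0 in all fits. The cause was not tested. No paired analysis was possible because the labels give the groups no shared replicate numbers. The replicate numbers used here follow the order of the samples within a group and pair no libraries across groups. Depth limits Anxa6 and Anxa9, whose base means were 18.7 and 40.3.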
